A study of Oryza sativa Indica Group with 64 samples.

Results

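The 200 genes described here are those whose transcript level in control leaves of IR64 rice was highest at dawn and moved most over the day. They were chosen by their measured control values. The level of a gene was the median, over the 4 control libraries of a time point, of log2(CPM + 1), where CPM is the count of a gene scaled to a library sum of 1000000 counts on genes. The range was the highest minus the lowest of the 8 levels. Of 57174 genes listed, 4256 had a control range of at least 2 on this log2 scale, 291 of these were highest at dawn, and the 200 with the largest range were taken. The IR64 plants were field-grown during a dry season, and leaves (flag leaves in the methods of the study) were sampled at dawn, 3 h, 7 h and 10 h after dawn, at dusk, and 14 h, 17 h and 23 h after dawn. WNT plants, the warm night temperature group, stand for the high night temperature (HNT) of the study and were warmed at night by an infrared heater in the field. Control plants are labelled only as control, and the night temperatures reached in either group are not given in the sources used here. Each of the 16 groups had 4 libraries of poly(A) RNA, 64 in all. How plots and heaters were laid out is not given in the sources used here, so WNT and plot cannot be told apart, and no source says what a replicate was, so p-values measure only the spread between these samples, which may be technical.

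In plant leaves, many transcripts follow the day, driven by the circadian clock together with light and temperature. Genes of the dawn phase start to rise in the late night, before light, and fall through the morning. Among them are the morning transcription factors of the clock, such as LHY in rice, which repress genes that peak later in the day. The gene identifiers of the counts were not paired with names: 0 of 57174 matched the gene table used, so the roles of the 200 genes are not given, the leaf origin could not be checked against marker genes, and only a few identifiers are printed.

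Counts on genes per library ranged from 1714647 to 37248564, with a median of 8627815. All 200 genes passed the filter on low counts, 183 had at least 1 count in every library, and the other 17 were at 0 in at most 32 libraries. Some libraries stood apart. Control 14 h replicate 2 had 21.7% of its reads aligned to several places, WNT 23 h replicate 3 had 9.97%, and each of the other groups stayed at or under 6.68%. Reads that were not aligned made up 22.0% in control 3 h replicate 4 and 21.9% in WNT 14 h replicate 1. They made up 21.7% in WNT 23 h replicate 1, 17.1% in WNT 23 h replicate 3 and at most 25.7%, in a control dusk library. The median log2(CPM + 1) of all genes tested was 4.03 in control 3 h replicate 4, against 3.42, 3.38 and 3.40 in control 3 h replicates 1, 2 and 3.

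The 200 genes were a large part of the leaf's transcripts at the end of the night and a small part in the afternoon. In the control dawn libraries they held 7.28%, 5.60%, 7.14% and 6.46% of all counts on genes. In the control 10 h libraries they held 0.872%, 0.725%, 0.823% and 0.573%. The median share fell 9.37-fold from dawn to its lowest time point, dusk, at 0.726%. The choice of the genes fixes these control values, which are therefore a description. In the WNT libraries, which the choice did not use, the share was 4.84%, 5.60%, 6.11% and 6.28% at dawn and 0.598%, 0.579%, 0.579% and 0.592% at 10 h. The WNT median fell 9.99-fold over the same day. No single gene made up the peak, since the 10 most abundant of the 200 together held 2.08% of counts at control dawn and the most abundant one 0.482%.

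**Figure D1:**
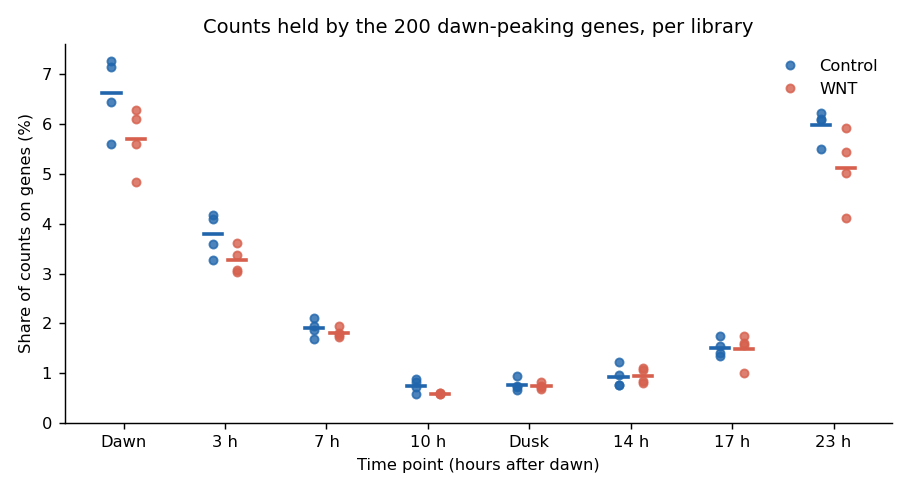
Percent of all counts on genes held by the 200 dawn-peaking genes in each library (points) at the 8 time points, with the mean of 4 libraries (bars), in control (blue) and WNT (red). Shares were highest at dawn and 23 h and at most 1.22% in every library at 10 h, dusk and 14 h, and the ranges of control and WNT overlapped at all 8 time points.

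The control course was a steady fall from dawn to 10 h, a small rise to dusk and a larger rise late at night. The median level of the 200 genes was 7.24 at dawn and, in the order of the day, 6.22 (3 h), 5.202 (7 h), 3.96 (10 h), 4.33 (dusk), 4.61 (14 h), 5.27 (17 h) and 7.07 (23 h). The median gene fell by 0.95 from dawn to 3 h, by 0.93 from 3 h to 7 h and by 1.17 from 7 h to 10 h. From 10 h to dusk it rose by 0.12, with 117 genes up and 82 down. The night rise was uneven. The median gene rose by 0.23 from dusk to 14 h, by 0.56 from 14 h to 17 h and by 1.71 from 17 h to 23 h, and the step from 17 h to 23 h was the largest rise of 144 of the 200 genes.

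At 23 h most of the rise was already complete. For 189 genes the control level at 23 h lay within 1 log2 unit of dawn, and the median gene was only 0.14 lower at 23 h than at dawn. At 3 h, 53.5% of the genes were still within 1 log2 unit of dawn. The lowest control level came at 10 h for 89 genes, at dusk for 54, at 14 h for 34 and at 7 h for 17, and at 17 h or 23 h for the others. The commonest pattern above the midpoint between a gene's own highest and lowest level was dawn, 3 h and 23 h, in 59 genes, followed by dawn, 3 h, 7 h and 23 h, in 53.

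A similar course was found in WNT. The WNT median level was 7.196 at dawn, followed by 5.97 (3 h), 5.14 (7 h), 3.93 (10 h), 4.53 (dusk), 4.76 (14 h), 5.24 (17 h) and 6.91 (23 h). The largest rise was again from 17 h to 23 h for 144 genes, and over all 200 genes the median of this step was 1.52. The lowest WNT level came at 10 h for 61% of the genes (44.5% in control), at dusk for 16% (27%) and at 14 h for 7.5% (17%). From 10 h to dusk the median gene rose by 0.38 in WNT, with 155 genes up, and by 0.12 in control, with 117 up. These differences were not tested, and the control values also chose the genes. Between 23 h and dawn the WNT median changed by 0.14, with 137 genes higher at dawn and 63 lower.

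**Figure D2:**
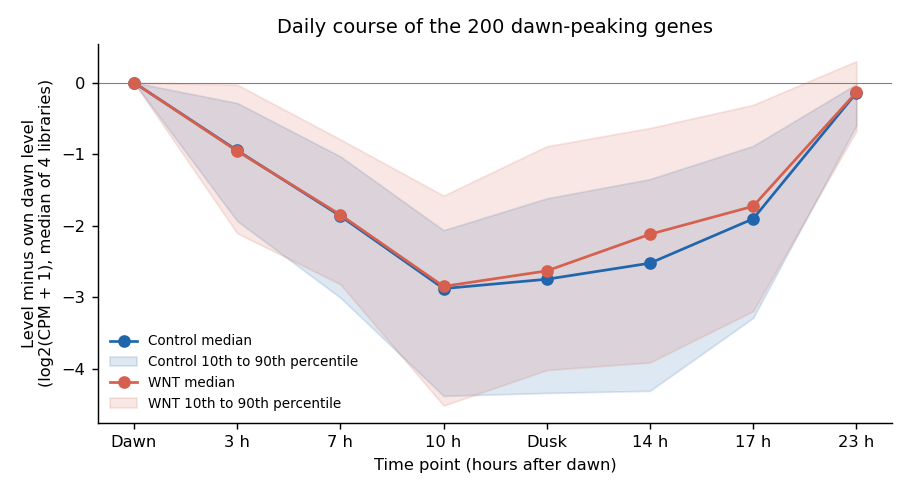
Level of the 200 genes at each time point minus their own dawn level, on the log2(CPM + 1) scale, as the median gene (lines) and the 10th to 90th percentile of genes (bands), in control (blue) and WNT (red). The medians fell by 2.88 in control and 2.84 in WNT from dawn to 10 h and lay 0.14 below dawn at 23 h in both; that dawn is the highest control value is set by the choice of genes.

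The 2 genes with the largest control range show the amplitude. MH04t0450300, with a range of 7.71, had 5337, 3998, 4544 and 5393 CPM in the control dawn libraries, 26.6, 19.1, 29.1 and 13.8 CPM at 10 h, and 4764, 4995, 4804 and 4208 CPM at 23 h. In WNT it had 2882, 3625, 3787 and 3385 CPM at dawn, 15.8, 19.9, 11.5 and 14.2 CPM at 10 h, and 3591, 4028, 2133 and 4138 CPM at 23 h. Its dawn and 10 h libraries were far apart in both treatments, while dawn and 23 h overlapped. In the WNT libraries alone, dawn was higher than 10 h by 8.14 on the log2 scale (SE 0.50, n = 4 against 4, edgeR adjusted p = 8.62e-13), and dawn minus 23 h was 0.11 (edgeR adjusted p = 0.951). All 4 WNT dawn libraries of this gene lay below all 4 control ones, a log2 difference of −0.49 that did not pass the test across all genes (edgeR adjusted p = 0.677).

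MH01t0743500, with a range of 7.15, had 837, 477, 1162 and 614 CPM at control dawn and 3.91, 4.23, 4.37 and 3.69 CPM at control 10 h. In WNT it had 235, 717, 681 and 569 CPM at dawn and 1.83, 5.197, 2.26 and 4.63 CPM at 10 h. WNT dawn replicate 1 was the lowest of the 8 dawn libraries, and the dawn values of the treatments overlapped. At the other end of the rule, the last gene taken had a range of 2.3509 and the first left out 2.3500. The members ranged from 2.35 to 7.71 with a median of 3.13, and 45 had a range of at least 4.

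The WNT libraries offer a test of the dawn peak that is independent of the choice. In a model of the 32 WNT libraries alone, 193 of the 200 genes were higher at dawn than the mean of the other 7 time points and 0 were lower, also at an unadjusted p under 0.05 (edgeR quasi-likelihood test, adjusted p under 0.05 for the calls; the count was 189 to 194 over 13 alternatives, DESeq2 included). Of all 19949 genes tested, 21.3% were higher at dawn in this contrast. The median log2 difference was 2.14 for the 200 genes and −0.06 for all genes tested, and 198 of the 200 values were positive. With library size as the only scaling, the median of all genes tested was −0.34 and that of the 200 genes 1.83.

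Against single time points of WNT, dawn was higher than 10 h in 196 of the 200 genes, with 24.4% of all genes tested called in that direction, and the median of the 200 was 3.44. Dawn was higher than dusk in 184 (20.8% of all genes, median 3.13), than 14 h in 186 (18.5%, median 2.80), than 17 h in 180 (15.7%, median 2.38) and than 7 h in 179 (21.6%, median 2.10). The difference to 3 h was smaller, with 111 genes called higher at dawn (14.3%, median 0.94) and 1 called lower. Between dawn and 23 h only MH12t0431000 was called, of the 0.0551% of all genes called higher at dawn, although 166 of the 200 log2 differences were positive, with a median of 0.26. At an unadjusted p under 0.05, 35 of the 200 genes were higher and 3 lower at dawn than at 23 h, 19% of the 200 in either direction, compared to 13.1% of all genes. DESeq2 called 9 of the 200 genes higher, and 0.767% of all genes. The edgeR count was 4 without WNT 23 h replicate 3 and 0 without WNT dawn replicate 3, without the number 3 libraries of WNT or without the number 4 libraries of WNT.

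MH12t0431000, named because it was the single call, after its values were seen, had 151.9, 249.8, 279.3 and 268.4 CPM at WNT dawn and 91.0, 103.4, 62.1 and 112.7 CPM at WNT 23 h. All 4 dawn libraries lay above all 4 libraries of 23 h, by 1.51 on the log2 scale (SE 0.27, edgeR adjusted p = 0.0283). In control it had 140.9, 178.6, 243.8 and 131.1 CPM at dawn and 157.3, 129.0, 163.9 and 144.8 CPM at 23 h, which overlapped.

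**Figure D3:**
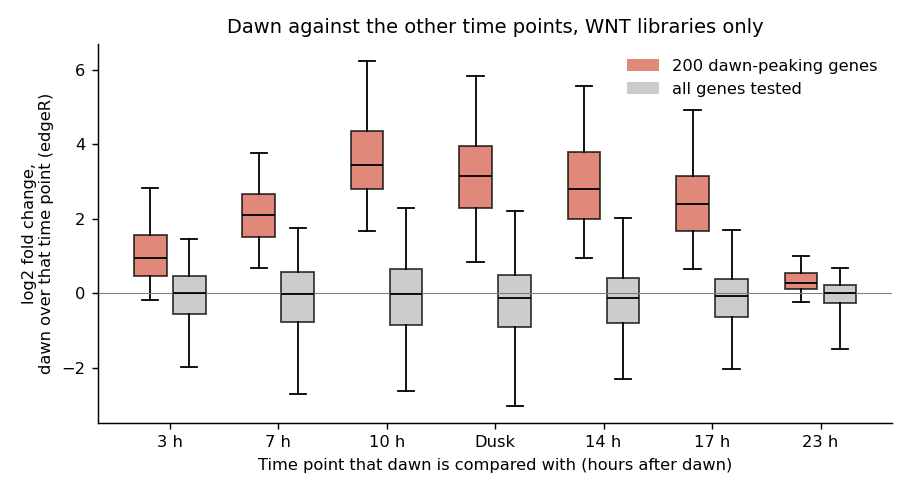
Log2 fold change of dawn over each other time point in the WNT libraries alone (edgeR), for the 200 dawn-peaking genes (red) and all 19949 genes tested (grey); boxes show quartiles, lines medians and whiskers the 5th and 95th percentiles. The medians of the 200 genes ran from 0.94 at 3 h to 3.44 at 10 h and back to 0.26 at 23 h, and those of all genes tested from −0.13 to 0.00.

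The 7 genes not called higher at dawn in WNT had control dawn levels of 2.92 to 6.27, all below the median of 7.24 of the 200 genes. Their WNT maximum was at 17 h for 4, at 23 h for 2 and at dusk for 1, and their log2 differences ran from −0.97 to 0.86. The 91 genes that met the rule but had too small a range to be taken behaved in the same direction in WNT: 77 were called higher at dawn, with a median of 1.32.

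By the simpler reading of the highest WNT median, 126 of the 200 genes were highest at dawn, 54 at 23 h, 14 at 3 h, and the other 6 at dusk (1), 14 h (1) or 17 h (4). For the 74 genes not highest at dawn, the WNT maximum exceeded the dawn level by a median of 0.19, by under 0.5 for 58 genes and by at least 1 for 5. Genes chosen in the same way for a control maximum at 23 h were highest at dawn in WNT in 66% of 200 cases and at 23 h in 54. In both lists the WNT maximum was thus most often at dawn, in 63% and 66% of the genes, and at 23 h in 54 genes. The dawn and 23 h levels of the 200 genes lay close together, and no shift of the peak can be read from either count. Genes chosen for a control maximum at 3 h had it at 3 h in WNT in 66.5% of 200 cases.

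Genes with an early morning fall in control also fell early in WNT. In control, 93 of the 200 genes were at least 1 log2 unit lower at 3 h than at dawn. In WNT these 93 had a median difference of 1.49, and 73 of them were called higher at dawn than at 3 h, compared to 38 of the 100 genes whose 3 h and 23 h levels were both within 1 log2 unit of dawn in control. The rule did not use WNT values. The 11 genes that were at least 1 log2 unit lower at 23 h than at dawn in control, with a median difference of 1.33, had a median of 0.49 in WNT, where dawn exceeded 23 h in 7 of the 11. These 11 genes were picked by their control difference, so the smaller WNT value is not read as an effect of WNT.

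Because control values chose the genes, the choice was repeated from 3 of the 4 control replicates and read in the one left out. The dawn rise, dawn minus the mean of 10 h, dusk and 14 h on the log2(CPM + 1) scale, had a median over the genes so chosen of 2.80, 2.76, 2.13 and 2.07 in the left-out control replicates 1, 2, 3 and 4. In the WNT libraries of the same number it was 2.46, 2.69, 2.38 and 2.72. The control values lay below and above the WNT values. Dawn minus 23 h in the left-out control had medians of 0.01, −0.13, 0.05 and 0.04, so dawn and 23 h were not separated in control libraries that had no part in the choice.

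The list itself depended on control replicate 4. Without replicates 1, 2 and 3, the new 200 shared 135, 139 and 137 genes with the original 200, and without replicate 4 only 90. Without replicate 4, 608 genes met the rule in place of 291, and 128 of the 200 then chosen were called higher at dawn in WNT, in place of 193. The dawn rise was positive in the left-out control replicate 4 for 66% of those 200 genes, against 99.5%, 94% and 95.5% in the other left-out replicates.

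How WNT altered the level of these genes was read in one model of all 64 libraries and 20525 genes. WNT minus control had a median over the 200 genes of −0.18 at dawn as log2 fold change, and then −0.25 (3 h), −0.12 (7 h), −0.20 (10 h), 0.01 (dusk), 0.09 (14 h), −0.07 (17 h) and −0.29 (23 h). The median over all genes tested was between −0.05 and 0.05 at every time point. The medians of the 200 genes were thus lower than those of all genes from 23 h to 10 h and on either side of them from dusk to 17 h. The control libraries that chose the genes also enter these values, so the counts of genes below describe these libraries and are not independent evidence of a direction. Leaving out libraries in 15 ways moved these medians. At 23 h they ran from −0.49 without the number 4 libraries of WNT to −0.18 without the number 3 libraries of WNT or WNT 23 h replicate 3 alone. The dawn median ran from −0.27 without the number 4 to −0.07 without the number 1 libraries of WNT. The 3 h median stayed between −0.29 and −0.18, the 7 h median between −0.19 and −0.08, and the 10 h median between −0.27 and −0.13. At the other time points the sign or size was not steady. The dusk median ran from −0.06 without the number 1 to 0.19 without the number 3 libraries of control, and the 14 h median from 0.00 without control 14 h replicate 2 to 0.22 without the number 3 libraries of control. The 17 h median ran from −0.11 without the number 2 to 0.07 without the number 3 libraries of WNT, and was also 0.07 without WNT 17 h replicate 3 alone.

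Few single genes passed the test at one time point, except at 3 h. At dawn 1 of the 200 genes was called, lower in WNT, when 0.404% of all genes were called in either direction and 0.283% were called lower. At 3 h 25 genes were called, 20 lower and 5 higher in WNT, when 6.84% of all genes were called, 2.75% lower and 4.09% higher. The lower calls were thus 10% of the 200 genes and the higher calls 2.5%. Of 200 genes chosen in the same way for a control maximum at 23 h, 9 were called lower and 4 higher at 3 h. Of the 200 chosen for a maximum at 3 h, 13 were called lower and 12 higher, with the control 3 h values part of that choice. At 7 h, 10 h, dusk, 14 h, 17 h and 23 h edgeR called 0 of the 200 genes, against 0%, 0%, 0%, 0.00487%, 0.195% and 0.00974% of all genes. At an unadjusted p under 0.05 there were 24, 41, 14, 16, 10 and 27 of the 200 genes at those time points, which is 12%, 20.5%, 7%, 8%, 5% and 13.5% of them. Of all genes, 9.3%, 8.82%, 4.06%, 5.54%, 6.93% and 14.8% passed that threshold in either direction. The share of the 200 genes was thus below that of all genes at 17 h and 23 h and above it at the other time points. By direction, 19, 37, 9, 5, 7 and 25 of the 200 genes were lower in WNT and 5, 4, 5, 11, 3 and 2 higher. The split of all genes by direction at this threshold is not given here. DESeq2 called 0, 14, 0, 1, 1 and 2 of the 200 genes, and 0.229%, 1.14%, 0.00487%, 0.185%, 0.458% and 0.857% of all genes.

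The count of 3 h calls changed as libraries were left out. The share of all genes called in those smaller fits is not given here. The changes are therefore not read as particular to the 200 genes. Without the number 4 libraries of WNT, 7 of the 200 genes were called at 3 h, all lower. Without the number 1 libraries of control, 15 were called. The count of genes higher at 3 h ran from 0 to 9 over the fits that left out one replicate number, and it was 2 without control 3 h replicate 4.

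The 2 lowest and the 2 highest of the called genes at 3 h are given by value. MH11t0026600 had 136.7, 50.9, 112.5 and 212.3 CPM in control and 34.4, 44.2, 21.7 and 9.23 CPM in WNT at 3 h, without overlap, a difference of −2.25 (SE 0.45, edgeR adjusted p = 0.000996). At dawn the same gene had 411, 321, 553 and 363 CPM in control and 243, 368, 385 and 218 CPM in WNT, which overlapped. Its log2 difference was negative at every time point, with −1.02 at 7 h and −1.05 at 10 h (neither called). The average difference of this gene was −0.74 (SE 0.15, edgeR adjusted p = 0.000633). Whether its fall from dawn to 3 h differed between WNT and control was not tested. MH01t0011200, a gene of low level, had 4.51, 3.97, 6.92 and 2.93 CPM in control and 0.530, 1.02, 1.30 and 0.902 CPM in WNT at 3 h, the latter from 2, 3, 9 and 9 counts. Its difference was −2.30 (SE 0.52, edgeR adjusted p = 0.00300).

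Of the higher genes, MH02t0661300 had 15.5, 21.2, 14.0 and 32.4 CPM in control and 30.2, 51.0, 79.2 and 72.9 CPM in WNT at 3 h. The groups overlapped in 1 pair of libraries, and the difference was 1.52 (SE 0.41, edgeR adjusted p = 0.0149). It was 1.28 without the number 4 libraries of WNT and 1.44 without the number 1 libraries of control, and was not called in either case. In WNT its dawn level of 23.3, 15.5, 16.6 and 28.8 CPM lay below every library of 3 h (log2 difference −1.47, edgeR adjusted p = 0.00331), and it was the gene called lower at dawn than at 3 h. MH06t0622600 had 5.14, 6.06, 6.58 and 5.03 CPM in control and 11.4, 8.16, 6.91 and 43.4 CPM in WNT, a difference of 1.70 (SE 0.50, edgeR adjusted p = 0.0279). WNT replicate 4 carried that value, since without the number 4 libraries of WNT the difference was 0.50 and not called. MH01t0743500 was also lower in WNT at 3 h, with 224, 88.2, 218 and 103 CPM in control and 66.7, 52.4, 26.8 and 13.8 CPM in WNT (−2.11, SE 0.51, edgeR adjusted p = 0.00602).

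The single gene called at dawn, MH05t0518500, had 180.3, 95.4, 133.8 and 129.5 CPM in control and 95.03, 82.3, 64.3 and 63.5 CPM in WNT. The WNT libraries lay below the control ones, with the highest WNT library just under the lowest control library. The difference was −0.86 (SE 0.19, edgeR adjusted p = 0.0300), and the call was lost under 10 of 20 alternatives. At 3 h the same gene was lower by the same size (−0.86, SE 0.20, edgeR adjusted p = 0.00467).

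**Figure D4:**
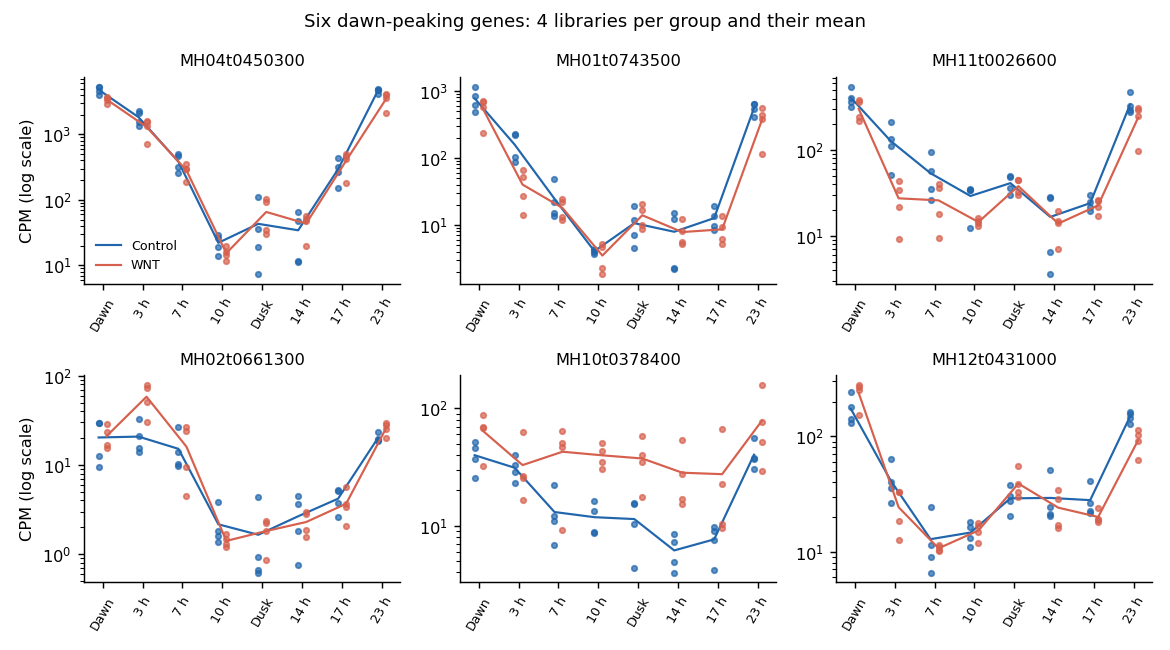
CPM (log axis) of 6 of the 200 genes at the 8 time points, with the 4 libraries of each group as points and their mean as a line, in control (blue) and WNT (red). In both treatments MH04t0450300 and MH12t0431000 were highest at dawn or 23 h; MH01t0743500 and MH11t0026600 were lower and MH02t0661300 higher in WNT at 3 h; MH10t0378400 stayed at 30.3 to 50.4 CPM at 10 h in WNT, against 8.66 to 16.3 CPM in control.

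The average of WNT minus control over the 8 time points gathers the small differences. It had a median of −0.14 over the 200 genes and 0.00 over all genes tested, and 57 of the 200 values were positive. The test called 45 of the 200 genes lower and 6 higher on average, when 19.1% of all genes were called, 9.01% lower and 10.1% higher. The lower calls were thus 22.5% of the 200 genes and the higher calls 3%. Genes chosen in the same way for a control maximum at 23 h had 13 lower and 16 higher calls, and those for 3 h had 23 lower and 23 higher. Without the number 3 libraries of WNT, 29 of the 200 genes were called lower and 3 higher, and 3 were higher without the number 2 libraries of WNT. The share of all genes called in those smaller fits is not given here either. The median was −0.05 without the number 3 libraries of control.

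The 45 lower genes were among the more abundant, with a median control level at dawn of 8.36, compared to 7.10 for the 149 genes not called on average. Their medians of WNT minus control were −0.47 (dawn), −0.68 (3 h), −0.39 (7 h), −0.60 (10 h), −0.29 (dusk), −0.18 (14 h), −0.25 (17 h) and −0.45 (23 h). Of these 45 genes, 21 were lower at all 8 time points, and 15 were also called lower at 3 h. The call that picked the 45 genes depends on their counts and on their control values. Their level and the signs of their medians are therefore a description only. Over all 200 genes, 22 were lower at all 8 time points and 4 higher at all 8, compared to 4.36% and 5.18% of all genes tested.

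MH04t0535700 had the lowest average, −0.83 (SE 0.18, edgeR adjusted p = 0.000849). At dawn it had 21.9, 18.5, 12.2 and 17.7 CPM in control and 10.9, 16.1, 9.06 and 3.88 CPM in WNT, which overlapped. MH08t0120200 had an average of −0.75 (SE 0.21, edgeR adjusted p = 0.00897), with 237.9, 55.2, 84.8 and 154.2 CPM at control dawn and 41.0, 106.6, 76.0 and 34.7 CPM at WNT dawn. These dawn values overlapped as well, and its average was −0.53 and not called without the number 4 libraries of control.

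For the 6 higher genes, the medians of WNT minus control were 0.33 (dawn), 0.13 (3 h), 0.74 (7 h), 1.43 (10 h), 1.16 (dusk), 1.05 (14 h), 0.93 (17 h) and 0.67 (23 h). The rule chose genes with control values high at dawn and low later, which favours smaller differences at dawn. No timing of a WNT effect is therefore read from these medians. MH10t0378400 had the highest average, 1.34 (SE 0.19, edgeR adjusted p = 3.98e-06). It had 16.3, 8.66, 8.84 and 13.4 CPM in control and 50.4, 35.1, 43.2 and 30.3 CPM in WNT at 10 h, without overlap. At dawn it had 51.6, 45.5, 36.9 and 25.5 CPM in control and 32.6, 87.2, 69.8 and 68.6 CPM in WNT, which overlapped. MH12t0326100 had an average of 0.87 (SE 0.26, edgeR adjusted p = 0.0155) and was one of the 7 genes not called higher at dawn in WNT. Its control dawn libraries had 45.3, 2.62, 49.4 and 46.6 CPM and its WNT dawn libraries 11.97, 23.5, 22.9 and 28.2 CPM. Its average was 0.50 without the number 3 libraries of WNT, 0.79 without the number 2 libraries of WNT and 0.73 without the number 4 libraries of control, and was not called in these 3 cases.

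**Figure D5:**
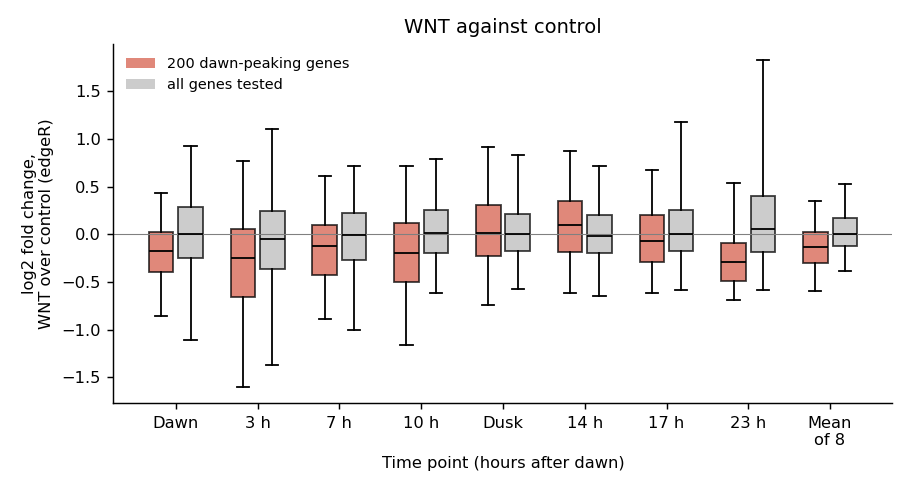
Log2 fold change of WNT over control at each time point and as the mean of the 8 (edgeR, 64 libraries), for the 200 dawn-peaking genes (red) and all 20525 genes tested (grey); boxes show quartiles, lines medians and whiskers the 5th and 95th percentiles. The medians of the 200 genes were lowest at 23 h (−0.29) and 3 h (−0.25) and above 0 at dusk and 14 h; control libraries that chose the genes enter these values.

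Without regard to any test, the number of the 200 genes whose 4 WNT libraries all lay below the 4 control libraries was 11 (dawn), 26 (3 h), 9 (7 h), 20 (10 h), 7 (dusk), 1 (14 h), 1 (17 h) and 28 (23 h). The 26, 20 and 28 genes are 13%, 10% and 14% of the 200. Of all genes tested, 2.14%, 2.7%, 1.85%, 3.43%, 1.14%, 1.05%, 1.64% and 2.08% lay below in the same order of time points. All 4 WNT libraries lay above in 0, 8, 3, 5, 3, 4, 2 and 3 of the 200 genes, and in 2.28%, 2.83%, 2.86%, 6.97%, 1.98%, 1.96%, 2.09% and 4.83% of all genes tested.

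The left-out control replicates show which of these differences held in control libraries without a part in the choice. Each round set 1 control library per time point against the same WNT medians, so the rounds are not independent of each other. At dawn, WNT minus the left-out control replicate had medians of −0.02, 0.03, −0.19 and 0.38 in rounds 1 to 4, with a mean of 0.05. The dawn median of −0.18 was thus reached in round 3 only. Round 4, with the highest value, used the list that shared only 90 genes with the 200. At 3 h the 4 medians ran from −0.56 to −0.15, with a mean of −0.29, and relative to the median of all genes tested they were lower by 0.21 to 0.40. At 23 h they ran from −0.32 to 0.02, and relative to all genes tested they were lower by 0.06 to 0.45. At 7 h they were lower than all genes tested by 0.06 to 0.31. At 10 h, dusk, 14 h and 17 h the sign of the difference from all genes tested varied between the rounds. Averaged over the day, the genes were lower than all genes tested by 0.057, 0.042, 0.24 and 0.0066 on the log2 scale, so the third round alone reached the size of the median of −0.14 seen with all control libraries.

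The height of the dawn peak over the rest of the day did not pass a test of change. The dawn excess, dawn minus the mean of the other 7 time points, was called different between WNT and control in 0 of the 200 genes by edgeR and by DESeq2, when 0.0195% of all genes were called by edgeR and 0.132% by DESeq2. At an unadjusted p under 0.05 it differed in 7 of the 200 genes (3.5%), compared to 8.53% of all genes. Its median over the 200 genes ran from −0.11 to 0.08 as libraries were left out. The median difference was −0.05 for the 200 genes and 0.00 for all genes tested. The control side of this contrast chose the genes, and nothing is read from the count. The range over the day, on the log2(CPM + 1) scale, had a median of 3.13 in control and 3.05 in WNT, was smaller in WNT for 127 of the 200 genes and was at least 2 in WNT for 193. The genes were taken for a large control range, which favours a smaller range in WNT. No flattening of the course by WNT is therefore read from these values.

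The spread between replicates limits what single genes can show. The median SD of log2 CPM over the 200 genes was 0.38 at control dawn and 0.43 at WNT dawn, compared to 0.36 and 0.34 for all genes tested. It was smallest at control 23 h (0.20, against 0.26) and largest at control 14 h (0.64, against 0.41). The median biological coefficient of variation was 0.322 for the 200 genes and 0.257 for all genes tested, and the median SE of WNT minus control at one time point was 0.33 to 0.36 for the 200 genes.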

How the data were processed

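Poly(A) RNA of 64 leaf libraries was sequenced, and the authors deposited raw counts per gene, made with HISAT2 and HTSeq 0.6.0 according to the submitters' processing notes. The library kit was directional, but the genome build, the annotation and the strand setting of the counting are not given in the sources used here, so overlapping, antisense and near-identical genes are uncertain. Groups and replicate numbers came from the deposited labels. The 5 closing lines of each file, reads not counted on a gene (24.8% to 62.2% of the sum of all lines of a file), were left out of library sizes and tests. The members and lists were chosen with earlier results of these data known.

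CPM used the sum of counts on genes (1714647 to 37248564 per library), and a floor of 3 counts covers counting error only. The test was that of edgeR 4.0.16 under R 4.3.3 (filterByExpr with a minimum of 10 and a total of 15, TMM factors of 0.695 to 1.36 in the fit of 64 libraries, glmQLFit with robust estimation, glmQLFTest), with Benjamini-Hochberg adjustment over all genes within a contrast and a threshold of 0.05. One fit used the 32 WNT libraries (19949 genes), the other all 64 (20525 genes). Standard errors came from the change and its F statistic. The tests were also run on simulated counts, with set changes but no other daily course. The outcome is not given here, and nothing is drawn from it. Alternatives were DESeq2 1.42.0, RLE scaling, library size only, no filter, a replicate block, leaving out each replicate number, and leaving out 7 single libraries, the last chosen after seeing the data. For the list, a pseudocount of 0.1 and other settings were tried.

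Named genes were the 2 with the largest control range and, for each comparison of WNT with control that had calls, at most the 2 highest and the 2 lowest called. Same-numbered control and WNT libraries of a time point deviated from their group means with correlations of −0.61 to 0.31, so the numbers were not taken as pairs. Plots were drawn in Python 3.11.15 with matplotlib 3.10.9.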

Additional observations from a re-analysis of the deposited data

Results flagged for a closer look

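In 4-library groups at dawn, 3 h, 10 h and 23 h, 112 checks were made of the named genes and of the share of counts held by the 200 genes, and 6 single libraries stood apart, where the gap to the nearest library, as a part of the group's range, was above Dixon's 95% critical value. Chance alone gives about 1 in 20 such checks. MH12t0326100 had 2.62 CPM in control dawn replicate 2, compared to 45.3 to 49.4 CPM in the other 3 libraries. MH06t0622600 had 43.4 CPM in WNT 3 h replicate 4, compared to 6.91 to 11.4 CPM. MH04t0535700 had 0.301 CPM in WNT 3 h replicate 4, compared to 2.38 to 2.72 CPM. MH05t0518500 had 47.7 CPM in control 3 h replicate 4, compared to 27.9 to 29.9 CPM. MH11t0026600 had 12.3 CPM in control 10 h replicate 4, compared to 34.3 to 35.4 CPM. MH08t0120200 had 8.56 CPM in control 10 h replicate 4, compared to 2.41 to 3.46 CPM.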

How the results depend on the processing

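Of 371 values of 22 counts of genes under the alternatives, 326 stayed within 1.5 times the reported count and 45 did not, and the cause was not tested. The count of genes higher at dawn in WNT was 189 to 194. Under DESeq2, 9 genes were higher at dawn than at 23 h in WNT, and WNT against control gave 3 calls (dawn), 14 (10 h), 1 (14 h), 1 (17 h) and 2 (23 h). With library size only there were 0 calls at dawn and 1 at 10 h, and without a filter 0 at dawn and 1 gene higher at 3 h. With a replicate block there was 1 call at 10 h, MH06t0622600 was no longer called at 3 h (1.49), no other named gene lost its call and no other count moved by over 1.5 times; each sample correlated best with its own number in only 6 of 32 cases. Leaving out libraries gave 0 to 4 genes higher at dawn than at 23 h in WNT, 0 to 2 calls at dawn, 7 to 27 at 3 h (of which 7 to 26 lower and 0 to 9 higher), 0 to 10 at 10 h, 0 to 1 both at 17 h and 23 h, and 29 to 50 lower and 3 to 8 higher on average. The 10 calls at 10 h came without the number 4 libraries of control. The genes highest at dawn in WNT numbered 100 without the number 3 libraries of WNT and 149 with TMM-scaled CPM. A list chosen with a pseudocount of 0.1 shared 146 genes with the 200, one from replicate means 161, one with TMM-scaled CPM 159, and one without control replicate 4 shared 90. Leaving out control replicates was not run for the fit of WNT libraries alone, which holds none. In the shallowest library 3 counts were 1.75 CPM, and levels under this cannot be told from 0 there.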
